A study of Mus musculus with 4 samples.

Results

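The circadian clock genes examined here were Arntl, Clock, Per1, Per2, Per3, Cry1, Nr1d1, Nr1d2, Dbp and Tef, 10 of the 24441 genes in the deposited expression table, taken by name. The libraries came from whole skin of female C57BL/6 mice, 8 weeks old by their labels, that were given bleomycin (BLM) under the skin every second day over 28 days. BLM breaks DNA strands and is used to provoke local fibrosis of the skin. There were 2 wild-type (WT) libraries and 2 from mice lacking gasdermin D on both alleles (GSDMD-/-, here KO), and both groups received BLM, so the comparison is of genotype within treated skin. Gasdermin D is the membrane pore protein of pyroptosis, an inflammatory cell death, and the KO line was made by injecting Cas9 mRNA and a guide RNA into fertilised C57BL/6 eggs. The animals were kept under a daily light/dark cycle. The hour at which skin was taken is not given in the sources used here, so genotype and hour of sampling cannot be told apart for genes whose level depends on the time of day.

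The clock is a transcription loop that most cells run on their own and that the light cycle keeps in step. ARNTL (also called BMAL1) and CLOCK bind as a pair to E-box elements and switch on the Per and Cry genes, whose proteins come back to block that pair. The same pair switches on Nr1d1 and Nr1d2, which encode the receptors REV-ERB alpha and beta, and these repress Arntl through ROR response elements (ROREs). DBP and TEF act on D-box elements and carry the rhythm to output genes. In skin the clock is known to run in keratinocytes, fibroblasts and hair follicle cells. In healthy tissue Arntl and Nr1d1 peak at nearly opposite times of day.

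The elements of this loop could be read in the sequence around the gene starts. RefSeq promoter windows from 250 bases before to 50 bases after each annotated start were at hand for 9 of the 10 genes (14 windows, build GRCm38.p6), and each of the 14 had 1 exact match in mm9, the build of the deposited coordinates. They were searched on both strands for the E-box CACGTG, the E′-box CACGTT, the D-box as TTATGTAA or TTACGTAA, and the RORE. An E-box stood in 4 of the 14 windows (Cry1, Per1 and Tef), against 7.15% of all 32851 windows. An E′-box was found in 2 of the 14 (Cry1 and Nr1d1, 4.68% of all windows), a D-box in 1 (Per3, 1.06%) and a RORE in 1 (Arntl, 0.384%). The stretches that hold them are shown so that the link from each element to its gene can be seen, 5′ to 3′ along the gene with the motif in capitals.
Per1, E-box, chr11:68912255-68912320, plus strand: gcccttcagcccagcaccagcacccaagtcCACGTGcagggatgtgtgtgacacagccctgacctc
Cry1, E′-box on the opposite strand and then E-box, chr10:84647824-84647908, minus strand: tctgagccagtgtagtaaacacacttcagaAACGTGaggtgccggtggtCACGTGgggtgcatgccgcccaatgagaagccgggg
Tef, E-box before the first start, chr15:81632946-81633011, plus strand: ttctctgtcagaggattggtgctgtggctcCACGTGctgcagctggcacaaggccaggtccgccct
Tef, E-box before the second start, chr15:81641676-81641741, plus strand: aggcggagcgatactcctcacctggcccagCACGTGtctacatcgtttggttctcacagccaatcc
Nr1d1, E′-box on the opposite strand, chr11:98636692-98636749, minus strand: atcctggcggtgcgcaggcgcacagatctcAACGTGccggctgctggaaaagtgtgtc
Per3, a pair of D-boxes, chr4:150418895-150419009, minus strand: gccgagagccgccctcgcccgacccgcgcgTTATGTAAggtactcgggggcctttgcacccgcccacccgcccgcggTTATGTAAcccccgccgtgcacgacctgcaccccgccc
Arntl, RORE 26 bases past its downstream start, chr7:120351042-120351070, plus strand: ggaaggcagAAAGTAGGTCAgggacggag
The windows of Clock, Nr1d2 and Dbp held none of these letters. A match describes these letters and is not a measured binding site.

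Values are FPKM, fragments scaled to transcript length and to the total of the library, so they are per length and may be set side by side between genes. Paired values are given as replicate 1 and then replicate 2. Fold changes were taken on the log2(FPKM + 1) scale, which understates changes of low genes, and tested with limma over 13027 genes, those reaching 1 FPKM in 2 or more libraries. All 10 clock genes passed this filter. By the spacing of the lowest values, 1 fragment on a transcript of 1 kb was worth about 0.0575 to 0.0699 FPKM in WT and 0.0734 to 0.0781 FPKM in KO libraries, so the WT libraries were the deeper ones. About 94 (Cry1, KO replicate 2) to 4706 fragments (Tef, WT replicate 1) then stood behind a clock gene value. Gsdmd itself was at 14.05 and 18.2 FPKM (WT) against 3.53 and 2.26 FPKM (KO). Its groups did not overlap, with a log2 fold change of -2.14 (adjusted p = 0.248 by limma). With 1 library left out the fold change was -2.38 to -1.90, and the adjusted p by limma was 0.00469 without KO replicate 1 and 0.104 to 0.954 in the other 3 cases. KO replicate 2 stood apart from the others. It had the lowest value of 8 of 8 macrophage, 6 of 7 fibroblast, 6 of 6 endothelial and 6 of 6 adipocyte markers, and it alone held reads of Y-linked genes (4 of 4 examined, 1.78 FPKM in sum), although the mice are described as female. KO replicate 1 had the highest value of 9 of 10 hair follicle and 7 of 7 fibroblast markers. Its summed hair follicle markers were at 334 FPKM, against 10.1 and 1.66 FPKM in the WT pair and 20.3 FPKM in KO replicate 2. Of the 10, 4 were at 0 in WT replicate 2 and 1 in KO replicate 2. The part of these cell types in the clock gene values was not tested. Each clock gene value below is from whole skin, where fewer cells of a type and less RNA per cell cannot be told apart.

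The 10 genes spanned a wide range of levels. Nr1d1, Dbp and Tef were the most abundant, with means over the 4 libraries of 59.6, 53.8 and 52.3 FPKM (percentiles 88.8 to 90 of all tested genes). Next came Nr1d2 at 21.3, Per1 at 15.9 and Per3 at 6.74 FPKM. Clock, Arntl, Cry1 and Per2 were low, at 4.16, 3.70, 2.75 and 2.63 FPKM. The ranges over libraries of Nr1d1, Dbp and Tef overlapped, as did those of Nr1d2 and Per1, of Per3 and Clock, and of the 4 low genes. Nr1d1 did not overlap Nr1d2, and Per1 did not overlap Per3. In every library the top 3 genes lay above the whole range of Nr1d2 and Per1, and these lay above the range of the other 5, while those 5 overlapped in part.

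**Figure D1:**
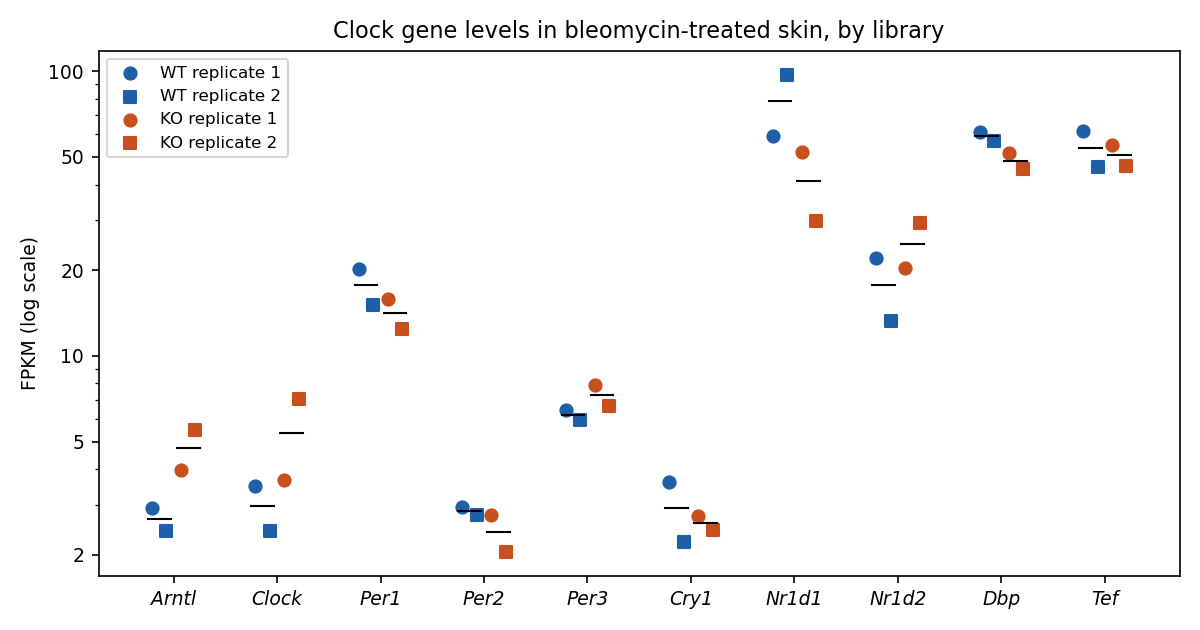
FPKM (log scale) of the 10 clock genes in each library. Blue points are WT and orange points KO, circles replicate 1 and squares replicate 2, and bars are group means (n = 2). Both KO points lie above both WT points for Arntl, Clock and Per3, and below them for Nr1d1 and Dbp.

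No clock gene passed the study's threshold, an adjusted p under 0.05 with an absolute log2 fold change above 1. The count was 0 of 10, and 0% of all 13027 tested genes were called, where the smallest adjusted p was 0.190 by limma. The study applied these limits with DESeq2, a count model, and reported differentially expressed genes, so the counts here are those of another test. None of the 10 had an unadjusted p under 0.05 at any size, while 2230 of all tested genes did. Among all tested genes, 6.16% were higher and 4.14% lower in KO at an unadjusted p under 0.05 with the same size limit (802 and 539 genes, and 633 and 708 with median-ratio scaling). In 3 of the 10 clock genes both KO libraries lay above both WT libraries, against 35.3% of all tested genes. In 2 of the 10 both lay below, against 20.5%. The log2 fold change was above 0 in 4 of the 10 and in 58.6% of all tested genes. Over the 10 genes the median log2 fold change was -0.087, and it was 0.11 over all tested genes. Median-ratio scaling moved the latter to 0.0085 and lowered the clock genes as well. Cry1 and Tef, the middle genes of the 10, moved from -0.101 and -0.073 to -0.187 and -0.192. The smallest two-sided p that exact permutation allows with 2 libraries against 2 is 0.333.

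Neither Arntl nor Clock, the positive limb, passed the test. Arntl (mm9 chr7:120350979-120457640) stood at 2.92 and 2.43 FPKM in the WT pair and at 3.98 and 5.49 FPKM in the KO pair. Both KO values were above both WT values, and the KO mean was 1.77 times the WT mean. The log2 fold change was 0.63 (SE 0.27, 95% interval -0.05 to 1.31, adjusted p = 0.308 by limma). Clock (chr5:76638893-76733817), the partner of Arntl, measured 3.49 and 2.42 FPKM (WT) against 3.68 and 7.06 FPKM (KO). The groups were barely apart, since KO replicate 1 was close to WT replicate 1, and the log2 fold change of 0.65 (SE 0.36, adjusted p = 0.387 by limma) became 0.26 without KO replicate 2 and 1.04 when KO replicate 1 was left out. The ratio of Arntl to Clock within a library lay between -0.36 and 0.11 on the log2 scale, and the groups overlapped in it. The low values of other cell types' markers in KO replicate 2 moved with the high Clock value, and their part in it was not tested.

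The REV-ERB genes, which the ARNTL-CLOCK pair switches on, had fold changes of opposite sign. Nr1d1 (chr11:98629246-98636691) stood at 59.2 and 97.3 FPKM in the WT pair and at 52.1 and 29.9 FPKM in the KO pair. Both KO values were lower, although WT replicate 1 and KO replicate 1 differed by less than either differed from its group partner. The log2 fold change of -0.93 (SE 0.40, 95% interval -1.94 to 0.09, adjusted p = 0.311 by limma) had the largest size among the 10 genes. Of all tested genes, 84.1% had a fold change of that size or smaller. Nr1d2 (chr14:19036570-19071620), the gene of the related receptor, measured 22.1 and 13.3 FPKM (WT) against 20.3 and 29.4 FPKM (KO), so the groups overlapped. Its log2 fold change was 0.48 (SE 0.35, adjusted p = 0.477 by limma), and it was 0.14 without WT replicate 2, 0.23 without KO replicate 2, 0.74 without KO replicate 1 and 0.83 without WT replicate 1. The ratio of Nr1d2 to Nr1d1 was -1.42 and -2.87 in WT and -1.36 and -0.03 in KO libraries on the log2 scale, so the pair were nearly level in KO replicate 2 alone.

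KO replicate 2, the library with the lowest macrophage, fibroblast, endothelial and adipocyte markers, also had the lowest Nr1d1 and the highest Nr1d2 value. WT replicate 2, with the highest Nr1d1 value, had the highest value of 5 of 6 adipocyte markers. Summed adipocyte markers were at 3168 and 6788 FPKM (WT) against 3513 and 1174 FPKM (KO), none of them at 0, so KO replicate 1 was above WT replicate 1 in this sum and below it in Nr1d1. The part of cell makeup in the REV-ERB values was not tested. Without KO replicate 2 the log2 fold change of Nr1d1 was -0.53, without WT replicate 2 it was -0.57, and without KO replicate 1 it was -1.32. Of the 3124 exon bases of Nr1d1, 263 are shared with exons of Thra on the other strand, a thyroid hormone receptor gene, and whether counting used the strand is not given in the sources used here. Thra stood at 36.9 and 47.4 FPKM in the WT pair and at 38.3 and 26.6 FPKM in the KO pair, an overlapping pattern with its extremes in the same libraries as Nr1d1. The part of shared fragments in the Nr1d1 values was not tested.

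None of the Per and Cry repressors passed the test. Per1 (chr11:68912451-68923459), which light and glucocorticoids also induce, measured 20.2 and 15.1 FPKM (WT) against 15.8 and 12.5 FPKM (KO). The groups overlapped, with a log2 fold change of -0.30 (SE 0.27, adjusted p = 0.564 by limma) that ran from -0.50 without WT replicate 2 to -0.10 without WT replicate 1 and -0.14 without KO replicate 2. Per2 (chr1:93312559-93355905) stood at 2.94 and 2.75 FPKM in the WT pair and at 2.77 and 2.05 FPKM in the KO pair, a log2 fold change of -0.18 (95% interval -0.82 to 0.46) that ran from -0.34 (KO replicate 1 left out) to -0.03 (KO replicate 2 left out). Per3 (chr4:150377764-150418774), with its pair of D-boxes, measured 6.44 and 5.98 FPKM (WT) against 7.91 and 6.64 FPKM (KO). It was the one Period gene with both KO values above both WT values, but the highest WT and lowest KO values were close and the log2 fold change was 0.20 (95% interval -0.42 to 0.81, adjusted p = 0.667 by limma). Leaving out KO replicate 1 gave 0.09, and leaving out KO replicate 2 gave 0.31. Cry1 (chr10:84594445-84647799) stood at 3.60 and 2.22 FPKM in the WT pair and at 2.74 and 2.44 FPKM in the KO pair. Its log2 fold change of -0.10 (95% interval -0.83 to 0.63) changed sign, to 0.16, without WT replicate 1. The 95% interval held 0 for all 4 genes, and differences inside these intervals could not be detected with 2 libraries per group.

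The genes of the output factors DBP and TEF did not pass the test either. Dbp (chr7:52960617-52965573) measured 61.3 and 56.8 FPKM (WT) against 51.8 and 45.3 FPKM (KO). Both KO values were lower, with a ratio of means of 0.821 and a log2 fold change of -0.28 (SE 0.23, 95% interval -0.87 to 0.31, adjusted p = 0.524 by limma). Of its 2945 exon bases, 491 are shared with Sphk2 on the other strand, a lipid kinase gene. Sphk2 stood at 15.0 and 18.8 FPKM in the WT pair and at 19.6 and 26.7 FPKM in the KO pair, with both KO values higher. The part of shared fragments in the Dbp values was not tested. Skeletal muscle markers had negative log2 fold changes in 6 of 6, while 58.6% of all tested genes were positive. Both KO values were below both WT values in 4 of the 6, against 20.5% of all tested genes, while Myh1 and Tnnt3 overlapped. The summed level of these markers was 19615 to 20805 FPKM in WT and 12792 to 13020 FPKM in KO libraries, none at 0. Their part in the Dbp values was not tested. Tef (chr15:81633103-81657293) measured 61.5 and 46.2 FPKM (WT) against 55.3 and 46.4 FPKM (KO). Its groups overlapped, and the log2 fold change of -0.07 (95% interval -0.75 to 0.60, adjusted p = 0.896 by limma) became positive without WT replicate 1 (0.13) or KO replicate 2 (0.05). Exons of Tef share 193 bases with Gm17597 on the other strand.

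**Figure D2:**
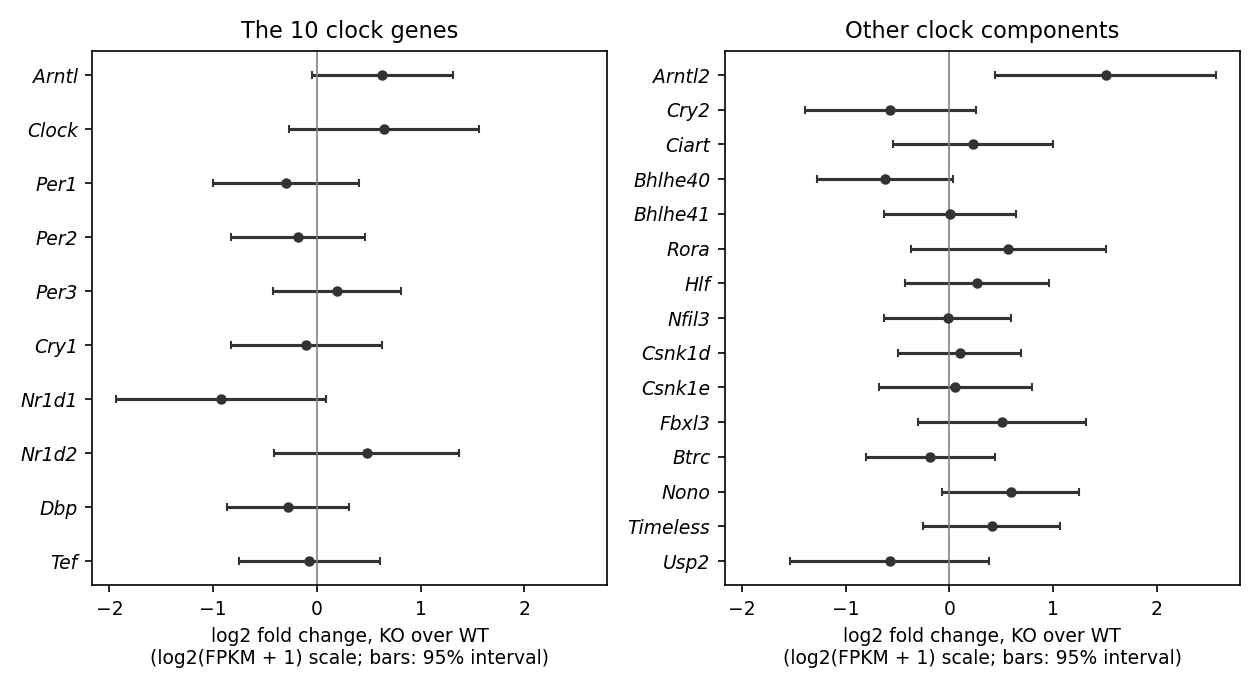
Log2 fold changes of KO over WT (log2(FPKM + 1) scale, limma, n = 2 per group) with 95% intervals, for the 10 clock genes on the left and 15 other clock components on the right. Every interval on the left holds 0, and on the right the interval of Arntl2, 0.44 to 2.57, alone does not.

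Ratios between clock genes of 1 library need no scaling between libraries, and 9 pairs, chosen with the values known, are given as a description without a test. The log2 ratio of Arntl to Nr1d1, the activator to its repressor, was -4.34 and -5.32 in WT and -3.71 and -2.44 in KO replicates 1 and 2. Both KO libraries were above both WT libraries, with a difference of means of 1.75. Arntl to Dbp gave -4.39 and -4.55 in WT and -3.70 and -3.04 in KO libraries, a difference of 1.10. Here the WT libraries lay close together and KO replicate 1 was apart from both. Clock to Nr1d1 gave -4.08 and -5.33 against -3.82 and -2.08. Ratios between known targets of the ARNTL-CLOCK pair took no single course. Nr1d2 to Nr1d1 differed between the group means by 1.45 and Dbp to Tef by -0.21, without overlap of the groups, while Per1 to Dbp and Cry1 to Per1 differed by -0.03 and 0.19 with overlap. For Arntl to Nr1d1, WT replicate 2 and KO replicate 2 stood at the ends, with both first replicates between them.

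**Figure D3:**
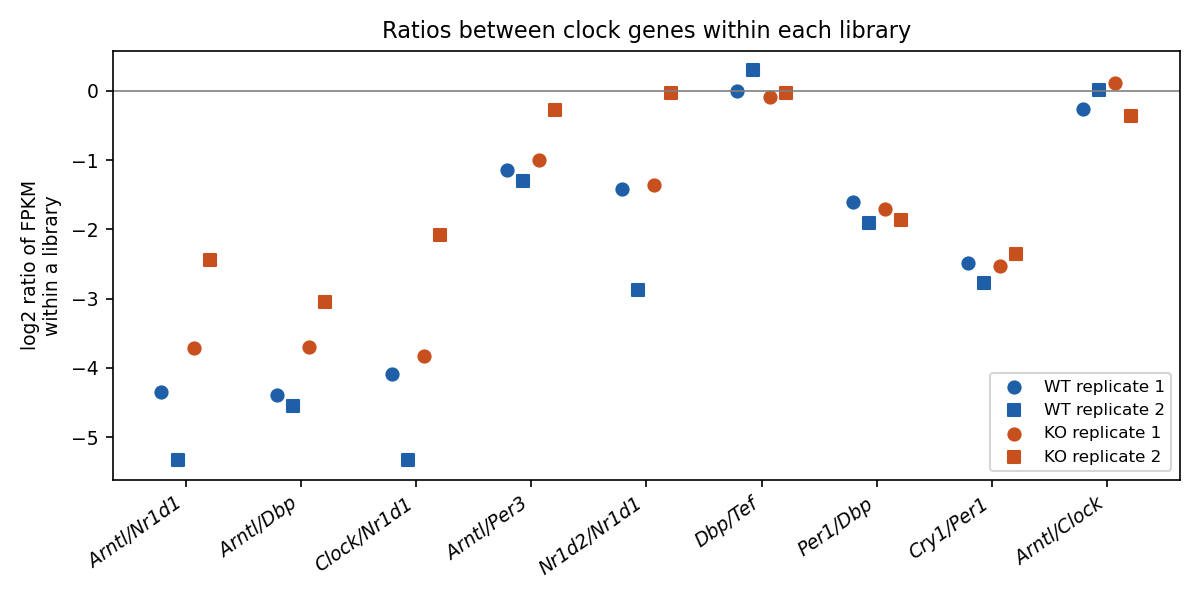
Log2 ratio of FPKM between 2 clock genes of the same library, for 9 pairs. Blue is WT and orange KO, circles are replicate 1 and squares replicate 2. For Arntl to Nr1d1 the points run from -5.32 in WT replicate 2 to -2.44 in KO replicate 2, and for Per1 to Dbp they lie between -1.91 and -1.60.

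The remaining genes of the loop were taken from a list of 18, of which 15 were tested. None passed the study's threshold, and 1, higher in KO, was past an unadjusted p under 0.05 with an absolute log2 fold change above 1, against 6.16% of all tested genes higher and 4.14% lower. Of the 15, 4 had both KO values above and 3 both below the WT values, against 35.3% and 20.5% of all tested genes. Their median log2 fold change was 0.10, and 10 of the 15 were above 0, against 58.6% of all tested genes. The 1 gene was Arntl2, a paralogue of Arntl, at 3.06 and 2.08 FPKM (WT) against 6.02 and 13.4 FPKM (KO). Its log2 fold change was 1.51 (SE 0.42, unadjusted p = 0.0147 and adjusted p = 0.248 by limma). Leaving out KO replicate 2 gave 0.99, and leaving out KO replicate 1 gave 2.03, where the adjusted p was 0.00913 by limma and 15.2% of all genes were called. Npas2, which can stand in for Clock, was under the filter, at 0.423 to 0.729 FPKM.

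Among the repressors on this list, Cry2 stood at 17.0 and 17.96 FPKM in the WT pair and at 15.1 and 8.65 FPKM in the KO pair (log2 fold change -0.57, adjusted p = 0.395 by limma). Its fold change was -0.20 without KO replicate 2, the library that stood apart, and -0.94 without KO replicate 1. Bhlhe40, which competes for E-boxes, measured 70.1 and 57.9 FPKM (WT) against 45.9 and 36.5 FPKM (KO). Its log2 fold change was -0.63 (95% interval -1.28 to 0.03, adjusted p = 0.299 by limma), and both KO values were lower. Ciart, another repressor of the ARNTL-CLOCK pair, stood at 5.79 and 6.29 FPKM in the WT pair and at 5.65 and 9.23 FPKM in the KO pair. The groups overlapped.

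ROR receptors activate Arntl at the same elements through which the REV-ERBs repress it. Rora measured 8.66 and 4.48 FPKM (WT) against 8.27 and 11.5 FPKM (KO) (log2 fold change 0.57, adjusted p = 0.440 by limma), and its groups overlapped. The fold change was 0.16 without WT replicate 2, 0.35 without KO replicate 2 and 0.98 without WT replicate 1. Rorb was under the filter. Exons of Cry2, Bhlhe40 and Rora overlap annotated genes on the other strand. Of the other factors that bind the D-box, Hlf had 1.47 to 2.29 FPKM in WT and 2.22 to 2.64 FPKM in KO libraries, and the repressor Nfil3 had 7.30 to 7.77 and 6.80 to 8.10 FPKM. The groups overlapped in both.

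Output genes of the clock had fold changes of both signs. Of 12 such genes 11 were tested, 6 with a positive and 5 with a negative log2 fold change, and the median was 0.025, while 58.6% of all tested genes were positive. None passed the study's threshold, while 2 were past the unadjusted p with the size limit, both higher in KO, as were 6.16% of all tested genes at these limits, with 4.14% lower. Aqp3, the glycerol and water channel of the epidermis, stood at 76.4 and 39.6 FPKM in the WT pair and at 120.5 and 128.1 FPKM in the KO pair (log2 fold change 1.16, SE 0.37, adjusted p = 0.254 by limma). Ces2g, a carboxylesterase gene, measured 7.81 and 5.04 FPKM (WT) against 12.6 and 29.0 FPKM (KO) (log2 fold change 1.47, adjusted p = 0.254 by limma). Pdk4, a kinase that holds back pyruvate oxidation, had 101.4 and 83.3 FPKM against 58.6 and 51.9 FPKM (log2 fold change -0.73, unadjusted p = 0.0295 and adjusted p = 0.264 by limma). Tspan4 stood at 29.5 and 61.3 FPKM in the WT pair and at 24.5 and 9.70 FPKM in the KO pair (log2 fold change -1.40, adjusted p = 0.294 by limma), and Chid1 overlaps its exons on the other strand. Summed macrophage markers, at 687 and 901 FPKM (WT) against 350 and 33.5 FPKM (KO) with none at 0, were likewise highest in WT replicate 2 and lowest in KO replicate 2, as were the summed adipocyte markers, and their part in the Tspan4 values was not tested. Without KO replicate 1, Ces2g and Tspan4 passed the threshold, with log2 fold changes of 2.04 and -2.03, as did 15.2% of all genes tested in that fit, but without KO replicate 2 these were 0.90 and -0.77 (adjusted p = 0.367 and 0.603 by limma). Without WT replicate 2, Tspan4 was at -0.88 and Aqp3 at 0.69. Of the keratinocyte markers 5 of 9 had both KO values above both WT values, as Aqp3 did, against 35.3% of all tested genes, and the other 4 overlapped. KO replicate 2, where Aqp3 was highest, had the highest value of 3 of the 9 and the lowest of another 3. In all, 8 of 9 had positive log2 fold changes, and their summed level was 3718 to 5143 FPKM in WT and 5920 to 11026 FPKM in KO libraries, with none at 0. Their part in the Aqp3 values was not tested. The skeletal muscle markers described beside Dbp, with a median log2 fold change of -0.70, also moved with Pdk4, and their part in its values was not tested.

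Glucocorticoid hormone is a daily signal that can set peripheral clocks and induces Per1, so its known target genes were read beside the clock genes. All 12 targets were tested, and 10 had a negative and 2 a positive log2 fold change, with a median of -0.28, while 58.6% of all tested genes were positive. None passed the study's threshold. Both KO values were below both WT values in 5 of the 12 genes and above them in 1, against 20.5% and 35.3% of all tested genes. The 5 were Zbtb16, Klf9, Mt1, Mt2 and Cdkn1a, with log2 fold changes of -0.87 to -0.32 and adjusted p-values of 0.299 to 0.505 by limma. Zbtb16, a zinc finger repressor, stood at 6.55 and 6.48 FPKM in the WT pair and at 4.59 and 2.41 FPKM in the KO pair. Klf9, a Krüppel-like factor, measured 32.6 and 22.0 FPKM (WT) against 18.9 and 14.6 FPKM (KO). Mt1 and Mt2 encode metallothioneins and Cdkn1a the cell cycle inhibitor p21. Mt1 was at 613 and 1287 FPKM (WT) against 589 and 398 FPKM (KO). Beside these genes, log2 fold changes were negative in all tested markers of 5 other lists, namely 6 of 6 adipocyte, 6 of 6 skeletal muscle, 8 of 8 macrophage, 6 of 6 endothelial and 5 of 5 neutrophil markers. Both KO values were below both WT values in 2, 4, 6, 0 and 4 of them, against 20.5% of all tested genes. In the remaining lists, 8 of 8 tested hair follicle and 8 of 9 keratinocyte markers had positive log2 fold changes (medians 2.72 and 1.09). Fibroblast markers had 2 positive and 5 negative ones. KO replicate 2 had the lowest value of 5 of the 12 targets. The part of these cell types in the target values was not tested. The one above was Ddit4, an inhibitor of mTORC1 signalling that stress also induces, at 22.3 and 25.2 FPKM (WT) against 49.5 and 41.1 FPKM (KO). Its log2 fold change was 0.90 (SE 0.24, unadjusted p = 0.0131 and adjusted p = 0.248 by limma). Inducers other than the hormone were not examined for any of the 12 targets. Fkbp5, a receptor chaperone widely used as a marker of the hormone's action, measured 17.4 and 14.8 FPKM (WT) against 11.5 and 15.7 FPKM (KO). Tsc22d3, which encodes the glucocorticoid-induced leucine zipper, had 76.2 and 51.2 FPKM against 64.4 and 57.0 FPKM. The groups overlapped in both of these genes, as they did for Per1.

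**Figure D4:**
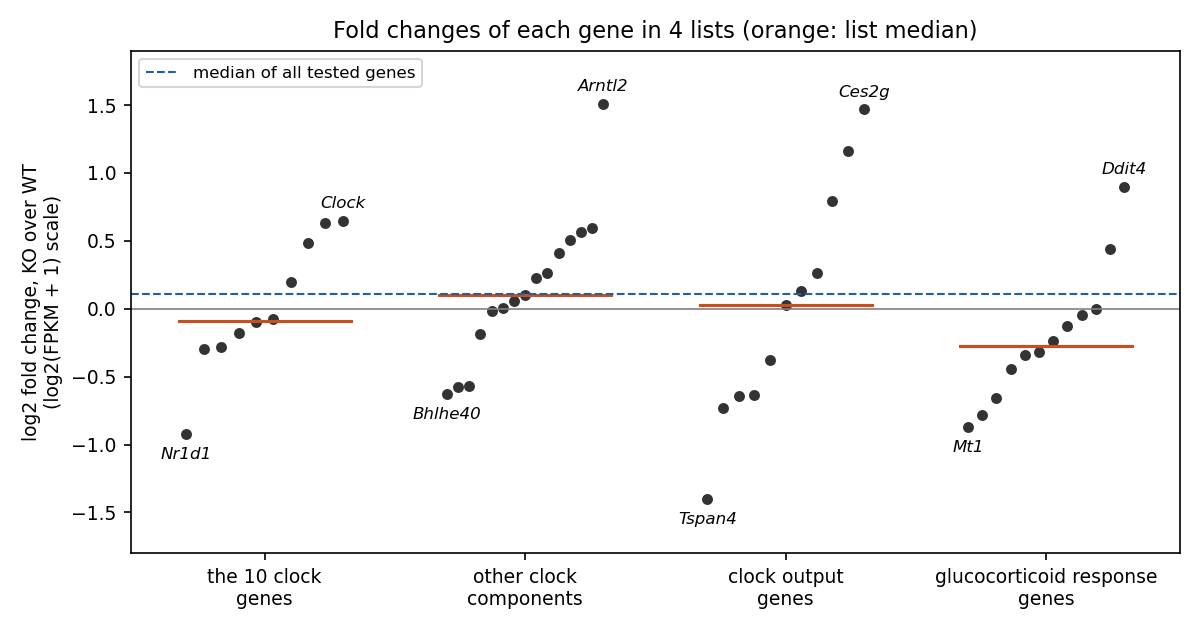
Log2 fold change of KO over WT (log2(FPKM + 1) scale) of each tested gene in 4 lists: the 10 clock genes, 15 other clock components, 11 clock output genes and 12 glucocorticoid response genes. Orange lines are list medians, at -0.087, 0.10, 0.025 and -0.28, the dashed line is the median of all tested genes at 0.11, and the lowest and highest gene of each list is named.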

How the data were processed

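The RNA-seq table covers 2 WT and 2 KO libraries of skin under BLM, grouped by their sample titles. According to the study's methods and the submitters' processing notes, paired-end reads were aligned to mm9 with HISAT2 (version 2.0.1). The notes also name StringTie (version 2.0.6), and the methods describe read counting and a count model. The table deposited by the authors holds FPKM values and no counts (99.993% of values above 0 are not whole), so a count test could not be run and differences in composition between libraries remain in the values. Here log2(FPKM + 1) was fitted with limma (version 3.58.1, R version 4.3.3) on genotype alone, using empirical Bayes with a mean-variance trend, and Benjamini-Hochberg adjustment over 13027 genes. Tested on simulated data with no change, the fit called nothing. It called most very large changes that were put in but none of a set of smaller ones that still exceeded the size limit, so a lack of calls does not show a lack of change. Whether each library is 1 mouse is not given in the sources used here, and p-values measure the spread between these libraries only. Deposited starts, which count from 0, were raised by 1 base. Overlaps came from GENCODE vM1 (mm9).

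The 10 genes, the lists and the alternatives were chosen with earlier results of these data known. Named were Gsdmd, the 10 genes, set partners in the loop, and listed genes with an absolute log2 fold change above 1 or an unadjusted p under 0.05. One gene of the lists is not reported here. Thra, Sphk2, Fkbp5, Tsc22d3, Zbtb16, Klf9, Mt1, Mt2 and Cdkn1a were named after their values were seen. Alternatives were pseudocounts of 0.1 and 0.5, other filters and scalings, no trend, a replicate block and leaving out each library.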

Additional observations from a re-analysis of the deposited data

How the results depend on the processing

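No clock gene was called under any alternative that was run. Of the 10 genes, 8 kept the sign of their log2 fold change in every alternative that tested them (Arntl, Clock, Cry1 and Per2 were below the filter on a mean of 5 FPKM), and the other 2 changed sign only when a library was left out: Cry1 ranged from -0.36 to 0.16 and Tef from -0.27 to 0.13. Among 13 other named genes, Nfil3 (-0.130 to 0.093) and Ciart (-0.082 to 0.540) did so too. Other pseudocounts, filters, scalings and fits changed no sign, but sizes moved. Median-ratio scaling took Tef from -0.073 to -0.192, Cry1 from -0.101 to -0.187 and Per3 from 0.196 to 0.090. At an unadjusted p under 0.05 with an absolute log2 fold change above 1, the count of clock genes moved from 0 to 1 with median-ratio scaling (Nr1d1, -1.04). Leaving out 1 library gave 0 to 2, namely Nr1d1 without WT replicate 1, and Nr1d1 with Clock once KO replicate 1 was dropped, with adjusted p-values of 0.0591 and 0.0828 by limma in the latter. Over all genes, leaving out a library gave 0 to 1920 called genes, 1920 when KO replicate 1 was left out and 31 when KO replicate 2 was, and 469 (no WT replicate 2) to 2888 genes (no KO replicate 1) at the unadjusted p against 1341 in all 4 libraries. In such a fit the lone library is assumed to vary like the other group. A filter on a mean of at least 5 FPKM left 887 genes at the unadjusted p, since fewer genes were tested. Deviations of same-numbered libraries from their group means had a weak negative correlation (-0.20 over 13027 genes), and no source pairs these libraries. With the replicate block, 0 genes were called and 1593 were at the unadjusted p, and 0 clock genes were called. A crossed pairing, added after the data were seen, called 0 genes with 1500 at the unadjusted p. Two-sided exact permutation over 2 libraries against 2 cannot reach the threshold for any gene.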

Other observations

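The likeness of other genes to Arntl and Dbp was measured as the Euclidean distance between deviations of log2(FPKM + 1) over the 4 libraries, as a description. Of 8756 genes with a mean of at least 5 FPKM, Ang, Rps20, Nab1, Rpl6 and Llph lay closest to Arntl, at distances of 0.03 to 0.05 log2 units. Ang encodes angiogenin and Nab1 a corepressor of EGR factors, and Rps20 and Rpl6 encode ribosomal proteins. Rpl6, for example, was at 134.9 and 120.4 FPKM (WT) against 167.2 and 223.5 FPKM (KO). Clock, the partner of Arntl, ranked only 1477th in likeness to it among 13024 tested genes, at a distance of 0.32, and Nr1d2 ranked 2390th. The genes closest to Dbp were Sh2b1, Auh, Dcaf5, Psmd8 and Bcor, and among the clock genes Per2 was nearest to it (rank 120, distance 0.13), followed by Per1 (rank 557) and Tef (rank 1223).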
